A study of Mus musculus with 72 samples.

Results

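The comparison described here is that of the -Trp and the Ctrl diet in the suprachiasmatic nucleus (SCN) during the subjective night, the second part of the circadian day, in mice kept in constant darkness (DD). Its members were chosen by diet, light schedule and time of collection: 9 Ctrl DD and 9 -Trp DD libraries, 3 of each diet at circadian time (CT) 12, CT16 and CT20, or 18 of the 72 libraries of the series. All mice were male C57BL/6 animals without a genetic change, 8 weeks old at the start, housed singly, held in DD for 1 week and then given a diet for 2 weeks in DD. The -Trp diet lacked tryptophan, and the Ctrl diet was matched to it for nitrogen. The SCN was dissected from each brain, and RNA was sequenced after selection of polyadenylated transcripts. The question addressed was whether removal of 1 essential amino acid from the food changed gene expression in the central clock tissue at these hours.

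The placement of the libraries rests on an assumption that bears on every result. The labels give each sample a diet, a schedule and a time. The values that the study lists for its Ctrl samples, however, sit in shifted columns of another name in the deposited tables. The Ctrl DD libraries used here were taken from columns named -Trp in a light-dark cycle at 4, 8 and 12 h. The -Trp DD libraries used here were taken from columns named Ctrl DD at 4, 8 and 12 h. Each diet thus carries the name of the other diet in the deposited tables. For the 9 Ctrl DD columns, all 127 to 134 genes compared had equal values in the shifted position, and the best other column matched 1 gene. The 9 -Trp DD columns were placed by continuing the same shift, for which no listed values were available here. The libraries of the subjective day and of the light-dark cycle used further below were placed by the same shift. Their -Trp columns had no listed values available either. With the columns taken as named, 0 genes passed the threshold for this comparison by limma (4914 at an unadjusted p under 0.05), so the results below hold only for the shifted order.

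The SCN is a small paired nucleus of the hypothalamus whose neurons, most of them GABAergic, keep time through a transcriptional feedback loop of Clock, Arntl, the Per and Cry genes and the Rev-erbs, and signal through peptides such as Vip and Avp. Tryptophan is the precursor of serotonin, which reaches the SCN from the raphe, and of kynurenine and nicotinamide adenine dinucleotide. In many cells a shortage of an amino acid is sensed through uncharged tRNA and the transcription factor Atf4, which raises amino acid transporters and aminoacyl-tRNA synthetases. Sterol and fatty acid synthesis is controlled by the transcription factors Srebf1 and Srebf2.

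Expression was deposited as FPKM (fragments per unit of transcript length and of mapped fragments), and the levels below are FPKM after scaling of the libraries to each other. Summed FPKM lay between 319668 and 352980 in Ctrl and between 330230 and 353587 in -Trp libraries. FPKM gives no read numbers, so the absolute depth is unknown. The labels do not say whether the 3 replicates of a time point are separate animals throughout, and p-values measure the spread between these libraries. Furthest apart was Ctrl CT12 replicate 1, with a highest correlation of 0.921 with any other library, against at least 0.978 for the others. Its summed level of 6 cortical marker genes was 425 FPKM against 4.85 to 9.71 in the other Ctrl libraries, and that of 13 genes of the arcuate and neighbouring hypothalamus was 52.2 against 958 to 1690 FPKM. It was kept in the main fit, and the results are also given without it. In -Trp CT12 replicates 1 and 3 the summed level of pituitary genes was 6.13 and 4.02 FPKM, against 54.6 to 124 in the other -Trp libraries. The mean log2 level of the arcuate list relative to Ctrl was -0.43 and -1.10 in these, against 0.44 to 0.85. Both libraries were kept as well. The pituitary sum was 3.10 FPKM in Ctrl CT12 replicate 1 and 116 to 275 FPKM in the other Ctrl libraries. Outside the low libraries it was thus mostly higher on Ctrl than on -Trp, with little overlap. The part of pituitary content in the diet differences was not tested. In bulk tissue, fewer cells of a type and less RNA per cell cannot be told apart.

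Expression differed modestly between the diets. Of 14527 genes tested, 247 (1.7%) were higher and 196 (1.35%) lower on the -Trp diet, 443 (3.05%) in all, in limma, where time entered as a factor, at a Benjamini-Hochberg adjusted p under 0.05; 25.4% had an unadjusted p under 0.05 (14.6% higher, 10.8% lower). The absolute log2 difference of these genes had a median of 0.28, from 0.13 to 2.77, and 397 of the 443 differed by less than 0.5 on this scale. Log2 differences throughout are -Trp minus Ctrl on the log2(FPKM + 0.5) scale, which understates the change of low genes. With the FPKM as deposited, without scaling between libraries, the split was 112 higher and 229 lower, and the median difference over all genes moved from 0.01 to -0.02.

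Without Ctrl CT12 replicate 1, 696 genes were higher (4.8%) and 665 lower (4.59%) of 14486 tested. Together they were 9.4% of those tested. All 443 genes of the full comparison were among these 1361, of which they made up 32.5%, with the same sign. The groups of 9 libraries did not overlap for 38 higher genes (0.262% of those tested) and 33 lower genes (0.227%). Higher genes were shorter and poorer in G and C: their median transcript length was 2535 bases against 3372 for all genes, and 3517 for lower genes, with a median GC content of 47.0%, 49.8% and 53.4% in the same order. Across 13957 genes the log2 difference correlated with length at a Spearman rho of -0.16 and with GC content at -0.30, where all genes share the same 18 libraries. With the length and GC trend of each library removed, an alternative chosen after seeing the data, 142 of 13957 genes tested were higher and 160 lower.

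**Figure D1:**
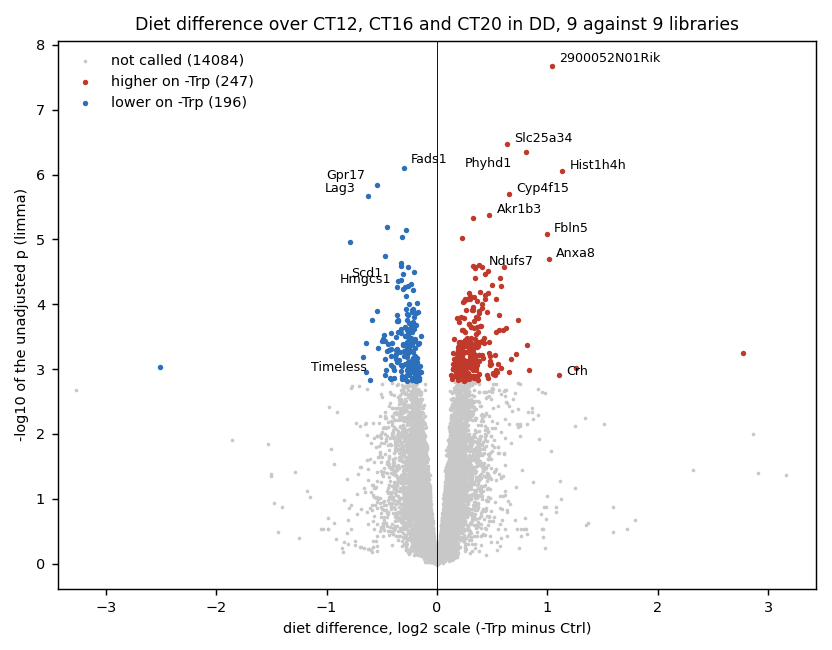
Log2 difference (-Trp minus Ctrl, log2(FPKM + 0.5) scale, x axis) against -log10 p of limma (y axis) for each gene tested in the 18 libraries of the DD subjective night; coloured points are the 247 genes higher and the 196 lower on the -Trp diet at an adjusted p under 0.05. Most coloured points lie within 0.5 of 0, and 2900052N01Rik has the smallest p.

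The gene with the smallest p was 2900052N01Rik, a long intergenic non-coding RNA without a role known with certainty (mm10, chr9:46913493-46927366, plus strand). Its lowest, median and highest level was 6.95, 8.51 and 9.67 FPKM on Ctrl and 12.6, 17.3 and 24.5 on -Trp, so that every -Trp library lay above every Ctrl library. The log2 difference was 1.04 ± 0.10 (SE), a 2.06-fold rise (adjusted p = 0.000303, limma). By time it was 1.28, 0.73 and 1.11 at CT12, CT16 and CT20.

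Phyhd1, a 2-oxoglutarate dependent dioxygenase of the phytanoyl-CoA hydroxylase family (chr2:30266203-30282149, plus strand), rose 1.75-fold. Its levels were 10.4, 13.5 and 17.3 FPKM (lowest, median, highest) on Ctrl and 21.8, 23.3 and 31.2 on -Trp, again without overlap (log2 difference 0.81 ± 0.10, adjusted p = 0.00219, limma). Slc25a34, a mitochondrial solute carrier, went from a range of 1.70 to 3.04 to one of 3.51 to 5.37 FPKM (0.63 ± 0.08, adjusted p = 0.00219). Cyp4f15, a cytochrome P450 of the family that hydroxylates fatty acids at the omega end, ranged from 2.53 to 4.77 on Ctrl and from 4.88 to 7.86 FPKM on -Trp (0.65 ± 0.09, adjusted p = 0.00389). The differences of these genes were of similar size at the 3 times. Phyhd1 and the Cyp4f genes formed a list of 7, of which 6 were tested and 2 rose, against 1.7% higher among all genes. These 2 were Phyhd1 and Cyp4f15 themselves, and the other 4 did not pass. The list was chosen with earlier results of these data known, so its count is no separate evidence.

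Among the other genes with the smallest p, Akr1b3, the aldose reductase of the polyol pathway, had 22.9, 29.1 and 32.2 FPKM on Ctrl and 34.9, 39.3 and 43.1 on -Trp, without overlap (0.47 ± 0.07, adjusted p = 0.00673). Its mean level on Ctrl was 26.5 at CT12, 25.5 at CT16 and 31.7 at CT20, and 41.1, 38 and 37.1 FPKM on -Trp, so that the gap was smallest at CT20. Oaz1, the antizyme that restrains polyamine synthesis, rose from a range of 138 to 170 to one of 180 to 204 FPKM (0.32 ± 0.05, adjusted p = 0.00687), and it has a listed pseudogene copy, Oaz1-ps, that may share its reads. Aldh6a1, an enzyme of valine breakdown, rose by 0.23 (adjusted p = 0.00919) with ranges of 22.7 to 26.4 and 26.8 to 30.8 FPKM.

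2 histone genes were in this group. Hist1h4h, a replication-dependent histone H4 gene, had 2.32, 3.37 and 5.21 FPKM on Ctrl and 5.73, 8.85 and 12.1 on -Trp (1.13 ± 0.15, adjusted p = 0.00254), and H2afz, the variant H2A.Z, went from a median of 85.8 to 114 FPKM (0.33, adjusted p = 0.0146). Histone genes have near-identical copies, and transcripts of the first kind largely lack a poly(A) tail, so the level of Hist1h4h is uncertain. The ranges of Hist1h4h did not overlap, and 8 of 9 -Trp libraries exceeded all Ctrl libraries for H2afz.

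The remaining 3 higher genes named by the smallest p were low in the SCN. Fbln5, an elastic fibre protein, rose from a median of 1.75 to 3.37 FPKM (0.99, adjusted p = 0.00919), with 7 of 9 -Trp libraries above all Ctrl ones. Anxa8, an annexin, rose from 0.636 to 1.91 (1.01, adjusted p = 0.0146), and Ugt1a6a, a glucuronosyltransferase that shares its last exons with other Ugt1a genes, from 0.406 to 0.693 FPKM (0.38, adjusted p = 0.0146).

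On the other side, Fads1, a desaturase of polyunsaturated fatty acid synthesis (chr19:10182888-10196877, plus strand), had the smallest p. Its levels were 54.9, 57.2 and 62.6 FPKM (lowest, median, highest) on Ctrl and 43.6, 47.2 and 50.3 on -Trp, and every -Trp library was below every Ctrl library. It fell by 0.30 on the log2 scale, to 0.811 of the Ctrl level (adjusted p = 0.00254, limma), by nearly the same amount at each time. Gpr17, a receptor of oligodendrocyte precursors that are about to differentiate, fell from 12.0, 13.7 and 16.0 to 7.49, 9 and 12.6 FPKM (-0.55 ± 0.07, adjusted p = 0.00348), and 8 of 9 -Trp libraries were below the lowest Ctrl one. 9630013A20Rik, annotated as an antisense RNA, fell from a median of 0.892 to 0.386 FPKM (-0.79 ± 0.13, adjusted p = 0.00982). Whether strand was used in the counting is not stated, so its reads cannot be told apart from those of a partner on the other strand.

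2 genes of immune cells fell without overlap. Lag3, an inhibitory receptor best known on lymphocytes, had 1.51, 1.99 and 2.78 FPKM on Ctrl and 0.808, 1.17 and 1.42 on -Trp (-0.63 ± 0.09, adjusted p = 0.00389). Laptm5, a lysosomal membrane protein of immune cells including microglia, had 7.16, 8.06 and 9.21 on Ctrl and 4.03, 5.82 and 6.92 FPKM on -Trp (-0.45 ± 0.07, adjusted p = 0.00842). None of the 10 microglial marker genes tested passed the threshold in limma (2 lower and 0 higher at an unadjusted p under 0.05), and their summed level was 165 to 284 FPKM on Ctrl and 170 to 217 on -Trp.

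The other 7 lower genes differed by between -0.47 and -0.21. They were Syndig1l (-0.47), which is related to a synapse differentiation factor, Pak6 (-0.33), a serine/threonine kinase, Nudt16 (-0.33), a phosphatase of inosine nucleotides, and Ube2r2 (-0.32), a ubiquitin-conjugating enzyme. Clptm1l (-0.28), a lipid scramblase of the endoplasmic reticulum, Ankrd40 (-0.26), an ankyrin repeat protein, and the antisense transcript Brip1os (-0.21) completed them. Their adjusted p ran from 0.0087 for Clptm1l to 0.016 for Brip1os. The 12 higher and 12 lower genes named so far stayed past the threshold whichever single library was left out; Ugt1a6a, near the filter on low values, was tested in 17 of these 18 fits.

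**Figure D2:**
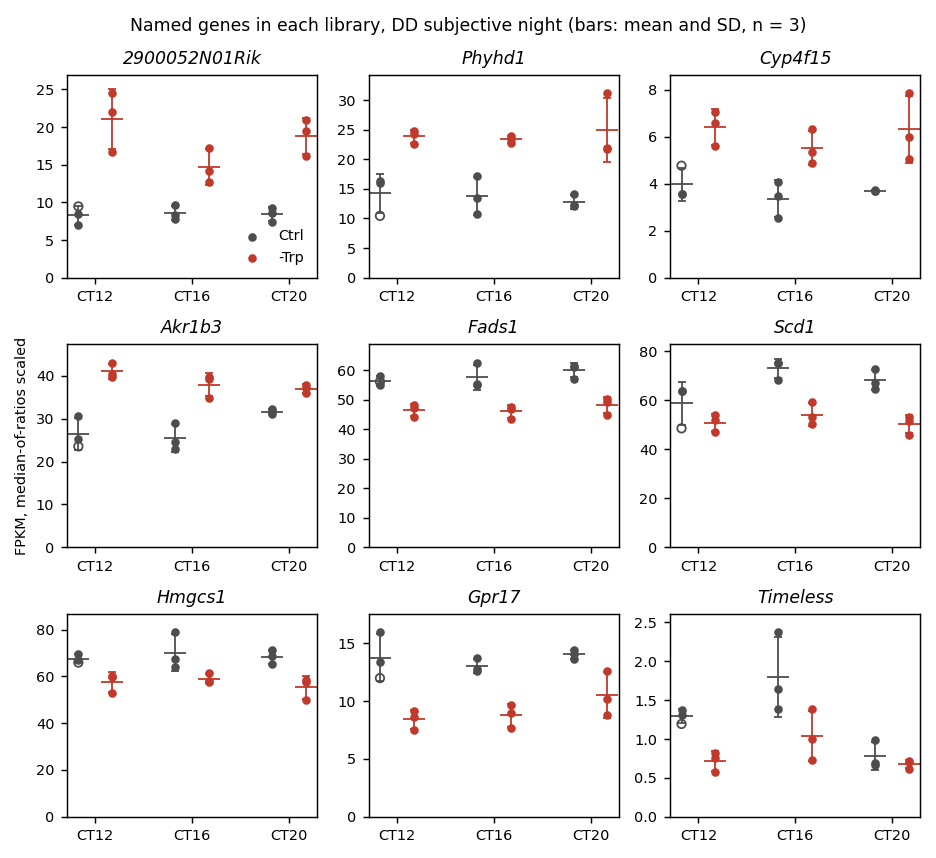
Scaled FPKM (y axis) of 9 genes in each of the 18 libraries by circadian time (x axis), Ctrl in grey and -Trp in red, each point a library, with the mean and SD of 3; the open circle is Ctrl CT12 replicate 1. The groups do not overlap for 2900052N01Rik, Phyhd1, Cyp4f15, Akr1b3, Fads1 and Hmgcs1, and overlap for Scd1, Gpr17 and Timeless.

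Several genes of sterol and fatty acid synthesis fell. Of 31 members tested, 7 fell and 0 rose, against 1.35% lower among all genes, 28 of 31 differences were negative, and the median was -0.14 against 0.01 for all genes. Hmgcs1, which condenses acetoacetyl-CoA early in the mevalonate pathway, had 64.2, 67.5 and 79.0 FPKM on Ctrl and 49.8, 58.1 and 61.3 on -Trp (-0.26 ± 0.05, adjusted p = 0.0195), without overlap. Scd1, the stearoyl-CoA desaturase, had 48.5, 67.2 and 75.4 on Ctrl and 46.0, 51.8 and 59.2 FPKM on -Trp (-0.36 ± 0.07, adjusted p = 0.018). The lowest of these Ctrl values for Scd1 was that of Ctrl CT12 replicate 1; without this library Scd1 differed by -0.40 (adjusted p = 0.000919), with no overlap between the other 8 Ctrl libraries (at least 63.8 FPKM) and the -Trp libraries.

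The members that fell also included Scd2 (-0.27, adjusted p = 0.031), the desaturase of the brain, Dhcr7 (-0.29, 0.0304), a reductase at the end of cholesterol synthesis, Mvd (-0.24, 0.0419), the mevalonate diphosphate decarboxylase, and Srebf2 itself (-0.24, 0.0429), all adjusted p of limma. Scd1 and Hmgcs1 passed in all 18 fits that leave out 1 library, Dhcr7 in 11, Scd2 in 10, Mvd in 6 and Srebf2 in 4. The median of the list was -0.07 at CT12, -0.17 at CT16 and -0.18 at CT20. The CT12 value includes Ctrl CT12 replicate 1, in which the summed level of the list was 930 FPKM. The sums were 1121 and 1143 FPKM in the other Ctrl CT12 libraries, and 976, 994 and 930 FPKM on -Trp at CT12. In the fit without Ctrl CT12 replicate 1, 14 members fell and 0 rose, against 4.59% lower among all genes. With the length and GC trend removed 6 fell and 0 rose, against 160 lower among all 13957 genes tested.

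The promoters of 4 of these 7 genes were matched in RefSeq (GRCm38.p6) and are shown because sterol genes are known targets of Srebf2, which binds sterol regulatory elements beside sites of the CCAAT-binding factor NF-Y. Each holds the bases upstream of the start of transcription and the first 50 after it, with TCACNCCAC and CCAAT in capitals, searched on both strands (CCAAT reads ATTGG on the other). The regions are chr13:119690101-119690400 (plus) for Hmgcs1, chr8:122443373-122443672 (minus) for Mvd, chr15:82147019-82147318 (plus) for Srebf2 and chr7:143829964-143830263 (plus) for Dhcr7, for which it is 1 of 3 listed starts.
Hmgcs1: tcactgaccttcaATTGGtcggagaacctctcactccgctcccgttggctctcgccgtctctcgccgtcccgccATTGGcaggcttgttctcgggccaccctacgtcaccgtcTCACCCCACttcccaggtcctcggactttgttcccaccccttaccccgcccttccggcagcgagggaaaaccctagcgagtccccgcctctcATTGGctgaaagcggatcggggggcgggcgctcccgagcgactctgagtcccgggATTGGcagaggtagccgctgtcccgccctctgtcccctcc
Mvd: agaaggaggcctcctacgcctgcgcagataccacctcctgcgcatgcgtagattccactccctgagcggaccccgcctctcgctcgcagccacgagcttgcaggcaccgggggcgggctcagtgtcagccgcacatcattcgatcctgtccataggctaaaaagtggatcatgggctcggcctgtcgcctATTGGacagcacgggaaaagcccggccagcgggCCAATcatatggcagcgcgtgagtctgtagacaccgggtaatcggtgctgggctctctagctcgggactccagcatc
Srebf2: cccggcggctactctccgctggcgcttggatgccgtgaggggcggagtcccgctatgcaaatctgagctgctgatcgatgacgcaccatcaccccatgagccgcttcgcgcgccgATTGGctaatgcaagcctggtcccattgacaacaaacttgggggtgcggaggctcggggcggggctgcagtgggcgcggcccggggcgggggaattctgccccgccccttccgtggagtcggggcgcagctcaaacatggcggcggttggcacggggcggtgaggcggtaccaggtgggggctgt
Dhcr7: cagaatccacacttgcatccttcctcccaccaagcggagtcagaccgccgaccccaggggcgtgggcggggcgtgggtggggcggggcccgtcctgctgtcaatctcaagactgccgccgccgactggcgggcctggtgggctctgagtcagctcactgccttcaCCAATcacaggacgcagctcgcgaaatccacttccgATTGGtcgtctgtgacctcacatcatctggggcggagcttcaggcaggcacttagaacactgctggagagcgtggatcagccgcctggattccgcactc

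TCACNCCAC was present in 1 of the 4, that of Hmgcs1, 137 bases before the start, and in 1.24% of all 32851 promoters of this length (408). CCAAT occurred 4 times in the Hmgcs1 promoter, 2 times each in that of Mvd and in the Dhcr7 promoter shown, and 1 time in that of Srebf2. The other 2 listed Dhcr7 promoters held neither motif. It was found in 37.4% of all promoters and in 20 of the 27 promoters of the 22 list members matched. A match of letters does not show that a factor was bound.

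Genes of the ribosome and of mitochondrial respiration were among those that rose. Of 80 genes for cytosolic ribosomal proteins tested, 11 rose and 0 fell, against 1.7% higher among all genes, 79 differences were positive, and the median was 0.22. Rps15 went from 675, 834 and 961 FPKM on Ctrl to 946, 1087 and 1288 on -Trp (0.38, adjusted p = 0.026), Rpl26 from a median of 70.7 to 101 (0.56, adjusted p = 0.0263) and Rpl30 from 35.8 to 47.7 FPKM (0.46, adjusted p = 0.0214). The smallest difference among the 11 was that of Rps23 (0.26, adjusted p = 0.0454). Ribosomal protein genes have many pseudogene copies that may share their reads.

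Of 89 nuclear genes for subunits of oxidative phosphorylation tested, 14 rose and 0 fell, against 1.7% higher among all genes, 81 differences were positive, and the median was 0.21. Ndufs7, a core subunit of complex I, went from 86.7, 105 and 116 FPKM on Ctrl to 116, 134 and 166 on -Trp (0.41, adjusted p = 0.0146). Cox5b of cytochrome c oxidase rose from a median of 292 to 356 FPKM (0.43, adjusted p = 0.0346), Uqcrb of complex III from 206 to 233 (0.29, adjusted p = 0.0382) and Sdhd of succinate dehydrogenase, with the smallest difference, from 61.3 to 67.8 FPKM (0.15, adjusted p = 0.0403).

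The differences of both lists were largest at CT12. The median was 0.33, 0.20 and 0.12 at CT12, CT16 and CT20 for the ribosomal list, and 0.26, 0.18 and 0.11 for the respiratory one. Both lists hold short transcripts, with a median length of 1100 and 1135 bases against 3372 for all genes. With the length and GC trend of each library removed, 7 ribosomal genes (median 0.15) were higher and 0 lower. Of the respiratory genes 5 were higher (median 0.09) and 0 lower, so that fewer of them passed. In that fit 142 of all 13957 genes tested were higher and 160 lower. Leaving out Ctrl CT12 replicate 1, 20 ribosomal and 42 respiratory genes were higher (4.8% among all genes) and 0 lower. Over the 18 fits that leave out 1 library, Rpl30 passed in all 18 and the other 10 ribosomal genes in 4 to 14. Ndufs7 and Ndufc2 passed in all 18 and the other 12 respiratory genes in 3 to 9, with Cox5b in 9, Uqcrb in 6 and Sdhd in 5. Over all alternatives in the shifted order, the difference of Uqcrb ran from 0.06 to 0.36 and that of Sdhd from 0.06 to 0.18.

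**Figure D3:**
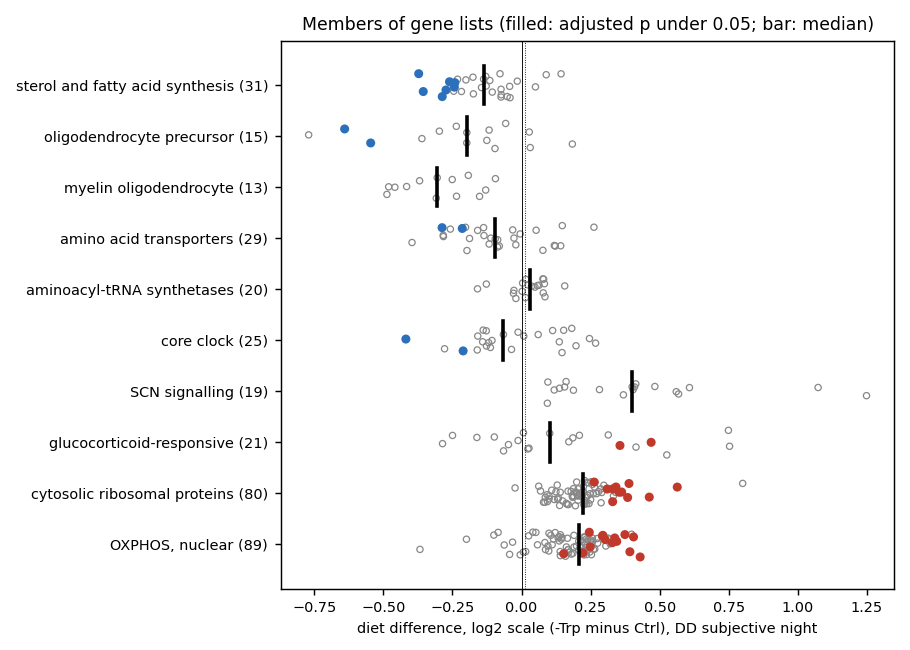
Log2 difference (-Trp minus Ctrl, log2(FPKM + 0.5) scale) of each tested member of 10 gene lists (x axis), 1 point a gene; filled points are past the adjusted threshold, thick bars are list medians and the dotted line is the median of all genes. Members of the sterol and fatty acid list lie mostly below 0 (median -0.14), and members of the ribosomal and respiratory lists mostly above it (medians 0.22 and 0.21).

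Both genes of the oligodendrocyte lineage that passed were lower. Of 15 genes of oligodendrocyte precursors and newly formed oligodendrocytes, 2 fell and 0 rose, against 1.35% lower among all genes, with a median of -0.20. With the length and GC trend removed, 1 was lower, against 160 lower among all 13957 genes tested. The first was Gpr17, described above. The second was Bcas1, a gene of oligodendrocytes that begin to form myelin, with 30.0, 35.9 and 81.7 FPKM on Ctrl and 22.3, 25.1 and 34.4 on -Trp (-0.64 ± 0.16, adjusted p = 0.0432). The highest of these values was that of Ctrl CT12 replicate 1, and the difference without it was -0.51 (adjusted p = 0.0206). Enpp6, another gene of new oligodendrocytes, had a median of 1.54 and 0.573 FPKM (-0.77, adjusted p = 0.0529, 0.0392 without that library).

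0 of 13 genes of mature myelin passed the test in limma, although all 13 differences were negative (median -0.31, 5 lower and 0 higher at an unadjusted p under 0.05). In Ctrl CT12 replicate 1 the summed level of these markers was 4164 FPKM, against 1289 to 2733 in the other Ctrl libraries. Without that library the median of the myelin list was -0.17. In the same fit 5 precursor genes were lower and 0 higher, against 4.59% lower among all genes. The summed level of the precursor list was 149 to 210 on Ctrl and 123 to 150 FPKM on -Trp, and the part of tissue content in these differences was not tested. 0 of 10 astrocyte genes passed in limma (1 higher and 2 lower at an unadjusted p under 0.05). Kcnj10, a glial potassium channel, was the 1 of 58 potassium channel genes that passed, against 1.35% lower among all genes. It fell by 0.37 (adjusted p = 0.0399, limma), and by 0.46 without Ctrl CT12 replicate 1 (adjusted p = 0.000212). In that fit 3 other potassium channel genes were higher, against 4.8% of all genes.

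Of the lists tied to a lack of amino acids, none held a gene that passed as higher in limma. Of 29 genes of the Atf4 response, 0 were higher and 2 lower in limma, against 1.35% lower among all genes. At an unadjusted p under 0.05, 1 was higher and 3 lower, and the median was -0.02. The 2 that passed were the subunits of the large neutral amino acid transporter that carries tryptophan into the brain. Slc3a2, the heavy chain, had 29.9, 33.8 and 40 FPKM on Ctrl and 27.6, 28.9 and 30.4 on -Trp (-0.21, adjusted p = 0.0346), and Slc7a5, the light chain, had 9.35, 11.3 and 13.0 on Ctrl and 7.68, 9.43 and 11.2 FPKM on -Trp (-0.29, adjusted p = 0.0374). The ranges of both overlapped. Among 29 amino acid transporters the same 2 fell and 0 rose, against 1.35% lower among all genes. Leaving out Ctrl CT12 replicate 1 gave 5 lower transporters and 3 lower genes of the Atf4 list, against 4.59% of all genes. Removal of the length and GC trend gave 1 lower gene in each list, against 160 lower among all 13957 genes tested. In either fit 0 members of these lists were higher. 0 of 20 aminoacyl-tRNA synthetases passed in limma (0 higher and 2 lower at an unadjusted p under 0.05), and Wars, which charges the tRNA of tryptophan, had medians of 27.0 and 24.5 FPKM (-0.16, adjusted p = 0.0845).

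0 of 26 genes of tryptophan and NAD metabolism passed in limma (1 higher and 2 lower at an unadjusted p under 0.05). The smallest p was that of Nadsyn1, the NAD synthetase, with 2.05 to 2.68 FPKM on Ctrl and 2.47 to 3.39 on -Trp (0.22, adjusted p = 0.056). Sirt2, an NAD-dependent deacetylase of myelinating cells, had medians of 71.6 and 63.5 FPKM (-0.19, adjusted p = 0.0631). 0 of 11 serotonin receptors (2 higher and 0 lower at an unadjusted p under 0.05) and 0 of 5 genes of the aryl hydrocarbon receptor, which kynurenines bind (0 at an unadjusted p under 0.05), passed in limma. When Ctrl CT12 replicate 1 was left out, 1 gene of tryptophan and NAD metabolism was higher and 2 were lower, and 1 serotonin receptor was lower. The shares of all genes in that fit were 4.8% higher and 4.59% lower.

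The core clock genes differed little in level. Of 25 tested, 0 rose and 2 fell, against 1.35% lower among all genes, with a median of -0.07. Timeless, a replication fork protein and the mammalian relative of the fly clock gene, had 0.667, 1.31 and 2.38 FPKM on Ctrl and 0.571, 0.733 and 1.38 on -Trp (-0.42 ± 0.10, adjusted p = 0.0417). Its mean was 1.29 at CT12, 1.80 at CT16 and 0.781 at CT20 on Ctrl, and 0.718, 1.04 and 0.678 FPKM on -Trp, so that the diets were furthest apart at CT12 and CT16. A change of its difference over time was not called, and it passed in 6 of the 18 fits that leave out 1 library. Bhlhe40, a clock-controlled repressor, fell by 0.21 (adjusted p = 0.0423), from a median of 18.8 to 16.4 FPKM. Without Ctrl CT12 replicate 1, 4 clock genes were lower and 0 higher, against 4.59% lower among all genes. With the length and GC trend removed 0 passed.

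Clock (0.18), Arntl (0.06), Per2 (0.14), Dbp (-0.13) and Nr1d1 (-0.07) did not pass, with an adjusted p of 0.117 for Clock, 0.443 for Per2 and above 0.6 for the other 3. The signs of Arntl and Dbp changed when CT20 was left out, and that of Nr1d1 when length and GC trends and Ctrl CT12 replicate 1 were removed. Of 19 genes of SCN signalling, among them the neuropeptides Avp, Vip and Nms, 0 passed in limma (4 higher and 0 lower at an unadjusted p under 0.05), although all 19 differences were positive. Their median was 0.40, and 0.23 without Ctrl CT12 replicate 1, and it was 0.75, 0.14 and 0.12 at CT12, CT16 and CT20. Nms, a peptide of pacemaker neurons, had medians of 0.731 and 2.35 FPKM (1.25, adjusted p = 0.0845), and Syt10, a synaptotagmin enriched in the SCN, of 6.94 and 9.35 (0.61, adjusted p = 0.128). The defining SCN genes were present in all 18 libraries, with a summed level of 524 to 1081 FPKM on Ctrl and 739 to 972 on -Trp. Ctrl CT12 replicate 1 lay within this range (725 FPKM). Its mean log2 level of the list relative to Ctrl was, however, -1.004, against -0.27 to 0.55 in the other Ctrl libraries. Its Syt10 level was 1.46 FPKM, against 5.44 to 8.99 in those. The sums therefore do not show that SCN content was alike, and the CT12 median of 0.75 includes this library.

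2 of 21 glucocorticoid-responsive genes rose and 0 fell, against 1.7% higher among all genes. Mt1, a metallothionein, had 241, 340 and 427 FPKM on Ctrl and 389, 433 and 567 on -Trp (0.47, adjusted p = 0.0346), and Klf15, a transcription factor of amino acid and glucose metabolism, had 7.16, 9.55 and 11.8 on Ctrl and 9.18, 12.3 and 13.9 FPKM on -Trp (0.36, adjusted p = 0.0346). For each of them, 6 of 9 -Trp libraries lay above all Ctrl libraries. Mt2, its neighbour in the same family, had medians of 211 and 239 FPKM (0.31, adjusted p = 0.0715).

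Among 25 feeding and neuroendocrine peptides and their receptors, 1 rose and 1 fell, against 1.7% and 1.35% of all genes. With Ctrl CT12 replicate 1 left out, 3 rose and 4 fell, against 4.8% and 4.59%. Crh, the corticotropin-releasing hormone, had 0.258, 0.813 and 2.01 FPKM on Ctrl and 0.540, 3.08 and 4.54 on -Trp (1.1 ± 0.28, adjusted p = 0.0454), with 6 of 9 -Trp libraries above all Ctrl ones. Npy1r, a receptor of neuropeptide Y, fell from a median of 7.65 to 5.57 FPKM (-0.47, adjusted p = 0.0346). Trh, the thyrotropin-releasing hormone, had 4.29, 58.2 and 96.2 on Ctrl and 72.7, 121 and 195 FPKM on -Trp (1.34, adjusted p = 0.0733), and the value without Ctrl CT12 replicate 1 was 0.92 (adjusted p = 0.0128).

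Crh and Trh are mainly made by neurons of the neighbouring hypothalamus. Of 13 genes of the arcuate and neighbouring hypothalamus, 1 rose, Crh itself, against 1.7% higher among all genes. Of the differences, 8 were positive and 5 negative, and the median was 0.40. The fit without Ctrl CT12 replicate 1 gave 4 higher and 1 lower, against 4.8% and 4.59% of all genes, with a median of -0.08. Their summed level was 958 to 1690 FPKM in the other 8 Ctrl libraries and 1392 to 2028 on -Trp. Sim1, a transcription factor of the paraventricular nucleus, had medians of 1.08 and 2.05 FPKM (0.73, adjusted p = 0.067). Of 8 genes of ependyma and tanycytes, 0 passed in limma (5 higher and 1 lower at an unadjusted p under 0.05), with a median of 0.51 and a summed level of 69.2 to 114 on Ctrl and 97.3 to 173 FPKM on -Trp. Ccdc153 and Tmem212, genes of ciliated cells, and Rarres2, a gene of tanycytes, had differences of 0.83, 0.91 and 0.58 (adjusted p = 0.0695, 0.0715 and 0.0569). Without Ctrl CT12 replicate 1, 4 of the 8 were higher and 0 lower, against 4.8% higher among all genes. The part of neighbouring tissue in the differences of Crh and Trh was not tested.

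**Figure D4:**
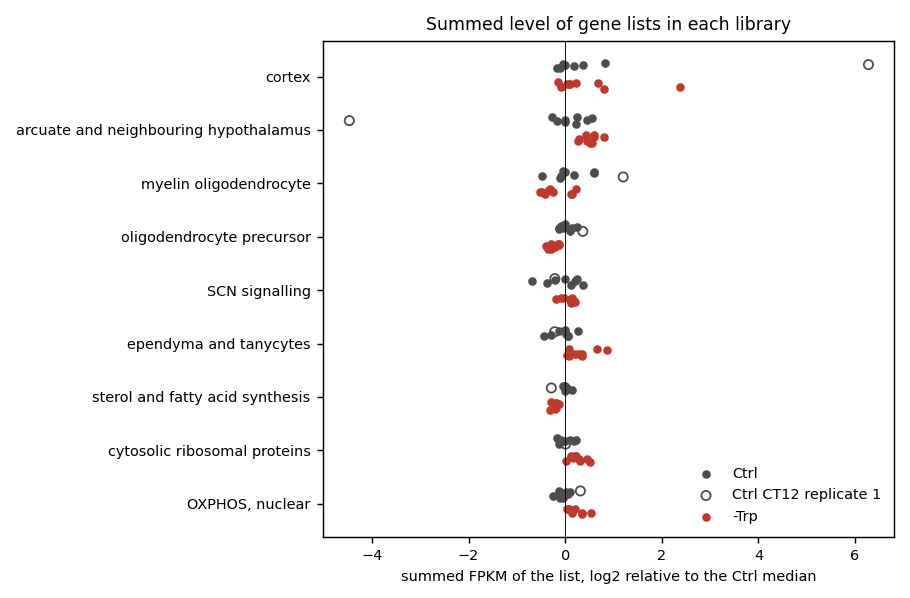
Summed scaled FPKM of 9 gene lists in each of the 18 libraries, as log2 relative to the Ctrl median (x axis), 1 point a library, Ctrl and -Trp in different colours; the open circle is Ctrl CT12 replicate 1. That library has the highest cortical sum (425 FPKM) and the lowest sum of the neighbouring hypothalamus (52.2 FPKM), and the ependymal sum is 69.2 to 114 on Ctrl and 97.3 to 173 on -Trp.

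Receptors and channels of neurons showed few differences. Of 46 glutamate and GABA receptor genes, 1 rose and 2 fell, against 1.7% and 1.35% of all genes. With Ctrl CT12 replicate 1 left out, 6 rose and 3 fell, against 4.8% and 4.59%, and with trends removed 0 passed. Grik5 and Gria1, a kainate and an AMPA receptor subunit, fell by 0.26 (adjusted p = 0.0423) and 0.16 (adjusted p = 0.0487). 0 of 26 sodium and calcium channel genes passed in limma (1 higher and 4 lower at an unadjusted p under 0.05). 0 of 16 immediate early genes passed (0 higher and 1 lower at an unadjusted p under 0.05), and their median of -0.27 went to -0.05 without Ctrl CT12 replicate 1, whose summed level was 176 FPKM against 40.2 to 66.4 in the other Ctrl libraries. Nr4a2, the member with the smallest p, had medians of 1.71 and 0.909 FPKM (-0.78, adjusted p = 0.054).

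Of 19 heat shock genes, 1 fell, the chaperone Hsp90ab1 (-0.16, adjusted p = 0.0426, limma). Of 31 splicing factors and ribonucleoproteins, 1 fell, Srsf11 (-0.23, adjusted p = 0.0315, limma). The share of all genes that were lower was 1.35%. 0 of 17 chaperones of the endoplasmic reticulum passed in limma (1 higher and 1 lower at an unadjusted p under 0.05). Lists of cold-inducible, fatty acid binding, vascular, blood, choroid plexus, meningeal, pituitary, striatal, cortical and thalamic genes held 0 genes past the threshold in limma, and at most 2 in a direction at an unadjusted p under 0.05.

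The diet difference was then taken at each time, 3 libraries against 3. At CT12, 137 genes were higher and 137 lower (0.943% each way, 1.89% in all), whereas 0 genes passed at CT16 (578, or 3.98%, at an unadjusted p under 0.05) and 0 at CT20 (1283, or 8.83%), all in limma. With the replicate number as a block, 10 genes passed at CT12, where the deviations of same-numbered libraries correlated at 0.45, 0.30 and 0.16. Without Ctrl CT12 replicate 1, 517 genes passed at CT12. Without -Trp CT12 replicate 1, 6 did, and without -Trp CT12 replicate 3, 5 did. At CT16 the smallest p were those of Akr1b3 (0.57), Ugt1a6a (0.56) and Tssk6, a testis-specific kinase (0.63). At CT20 they were those of 2900052N01Rik (1.11, adjusted p = 0.0775), Rnaset2a (-0.79, adjusted p = 0.0775), a ribonuclease, and Pnpla7 (0.47), a lysophospholipase. The mean of Rnaset2a was 21.9 ± 1.59 FPKM (SD, n = 3) on Ctrl and 12.6 ± 2.39 on -Trp at CT20, against 19.8 ± 1.19 and 18 ± 0.962 at CT16.

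Whether the diet difference changed over the 3 times was tested directly. 1 gene of 14527 passed (0.00688%), Snora17, with an adjusted p of 3.89e-07 in limma, and 680 (4.68%) had an unadjusted p under 0.05. Snora17, a small nucleolar RNA, was at 20.5, 40.3 and 15.0 FPKM in the Ctrl CT12 libraries and was listed at 0 in the other 15. The next smallest p were those of Glod5, a glyoxalase domain protein (adjusted p = 0.36), and Xkr6, a scramblase-related protein (adjusted p = 0.89). The smaller number of genes called at CT16 and CT20 than at CT12 therefore does not show that the genes called at CT12 differed from those times.

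The most similar comparison is that of the same diets in DD during the subjective day, CT0 to CT8, in 18 other libraries. There 42 of 14428 genes passed (0.291%). The difference between the night and the day effect passed for 26 of 14484 genes (0.18%), 8 with a higher (0.0552%) and 18 with a lower value (0.124%) at night, and for 40 without Ctrl CT12 replicate 1. The smallest p was that of Srsf11, a splicing factor, which was lower on -Trp at night (-0.23) and higher by day (0.34), a difference of -0.57 (adjusted p = 1.81e-05). Larp7, which binds the small nuclear RNA 7SK, differed by -0.45 between night and day (adjusted p = 0.00187) and Tmem50a, a membrane protein, by -0.48 (adjusted p = 0.00282). Akr1b3 was 0.47 at night and -0.17 by day (difference adjusted p = 0.0151), and Slc25a34 0.63 and 0.15 (difference adjusted p = 0.039).

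Other named genes had like values by day and night. Phyhd1 differed by 0.74 by day (adjusted p = 0.000125), Gpr17 by -0.53 (adjusted p = 0.000211), Scd1 by -0.44 (adjusted p = 0.0052), Scd2 by -0.31 (adjusted p = 0.0177), Dhcr7 by -0.25 (adjusted p = 0.0247), Hmgcs1 by -0.22 (adjusted p = 0.0492), Kcnj10 by -0.44 (adjusted p = 0.0145) and 9630013A20Rik by -0.70 (adjusted p = 0.0166). 12 genes passed in both comparisons, 11 of them with the same sign, Srsf11 being the exception. By day the median of the sterol list was -0.16, that of the ribosomal list 0.15 and that of the respiratory list 0.05. Of the genes higher at night, 184 of 246 tested in both had the same sign by day (74.8%), and of the lower ones 152 of 196 (77.6%), against 64.5% of all genes. These libraries are distinct, but both sets were scaled together.

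At the same hours in a 12 h light and 12 h dark cycle (LD), 28 of 14175 genes passed (0.198%). Summed FPKM ran from 430911 to 524705 in these LD libraries, against 319668 to 353587 in those of the DD night. The part of this in the differences between DD and LD was not tested. The difference between the DD and the LD effect at night passed for 170 of 14441 genes (1.18%), 80 with a higher (0.554%) and 90 with a lower value (0.623%) in DD. The smallest p were those of a gene listed as SlcUbl4a (0.87, adjusted p = 0.0178), Lag3 (-0.88, adjusted p = 0.0178) and Arl8a, a GTPase that moves lysosomes (-0.37, adjusted p = 0.0178). Without -Trp CT12 replicate 1, 11 genes passed, so that this count rests on single libraries. Fads1 was -0.30 in DD and -0.03 in LD (difference adjusted p = 0.0269), Hist1h4h 1.13 and 0.03 (0.0299) and Npy1r -0.47 and 0.18 (0.0277).

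5 genes passed at night in both DD and LD, all higher on the -Trp diet, and they included Phyhd1 (0.59 in LD, adjusted p = 0.0202), Cyp4f15 (0.45, 0.0103), Slc25a34 (0.32, 0.0093) and, named because this count is small, Prodh. Prodh, the proline dehydrogenase, had 7.18, 9.28 and 12.2 on Ctrl and 10.7, 12.3 and 15.8 FPKM on -Trp in DD (0.41, adjusted p = 0.0391), and differed by 0.45 in LD (adjusted p = 0.0103). Of the genes higher in DD at night, 84 of 242 tested in both had the same sign in LD (34.7%), and of the lower ones 73 of 193 (37.8%), against 42.9% of all genes.

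The number of genes called depended on single libraries. Leaving out 1 of the 18 at a time gave between 56 genes (32 higher and 24 lower, without -Trp CT12 replicate 1) and 1361 (without Ctrl CT12 replicate 1), and 2 of the 18 counts were within 1.5 times the 443 of the full comparison. Leaving out Ctrl CT16 replicate 2 gave 676 higher and 443 lower genes, and leaving out -Trp CT20 replicate 2 gave 528 and 338. Without Ctrl CT20 replicate 2, 33 genes were higher and 26 lower. With a whole time point left out, 27 genes passed without CT12, 1 without CT16 and 0 without CT20, each in 12 libraries.

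**Figure D5:**
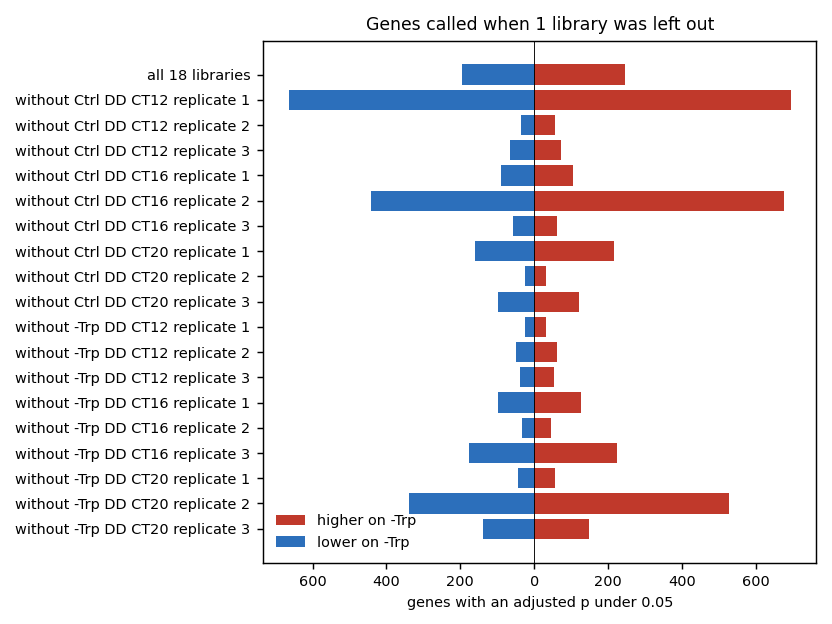
Number of genes higher and lower on the -Trp diet at an adjusted p under 0.05 (x axis) in the full comparison and after leaving out each of the 18 libraries in turn (y axis). The counts run from 32 higher and 24 lower without -Trp CT12 replicate 1 to 696 higher and 665 lower without Ctrl CT12 replicate 1.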

How the data were processed

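18 SCN RNA-seq libraries of the DD subjective night were used. The authors trimmed reads with Trimmomatic, mapped them with TopHat (mm10) and obtained gene FPKM from Cufflinks (versions not given in the sources used here), and the deposited FPKM values, 1 table per group with 24883 rows, were the start of all calculations. FPKM gives no read numbers, so absolute depth and counting error are unknown; relative depth, from the commonest ratio of low values, was 0.812 to 1.03 (median 0.953) in Ctrl and 0.758 to 1.2 (median 1.03) in -Trp libraries. Per-sample columns left unused numbered 0.

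Columns were placed by the order of the study's listed Ctrl values, as described with the results. Values were scaled by median-of-ratios over all 72 libraries, genes averaging under 0.5 FPKM were dropped, and log2(FPKM + 0.5) was tested with limma 3.58.1 in R 4.3.3, with time as a factor and Benjamini-Hochberg adjustment over all genes tested (threshold 0.05). Effects at single times, the diet by time terms, and the interactions with DD day and LD night were contrasts of like fits. Python 3.11.15, numpy 2.4.6, pandas 2.3.3 and matplotlib 3.10.9 were used for joining and plots. The scripts were tested on simulated data. Of 24346 symbols, 23310 (95.7%) were found in GENCODE M21, which gave positions, lengths and GC content.

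Named genes were the 12 with the smallest p in each direction, the 3 with the smallest p in each other design, list members called or among the 3 smallest p, and Timeless and other clock genes. The members of the comparison and the gene lists, written from general knowledge, were chosen with earlier results of these data known. Alternatives were another pseudocount (0.1 or 1), no filter, a stricter filter (1 FPKM), FPKM as deposited, scaling within the 18 libraries, other variance settings, a replicate block, the columns as named, and leaving out libraries or times. Removal of length and GC trends was added after seeing the data. Results for some genes are not reported here.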

Additional observations from a re-analysis of the deposited data

Results flagged for a closer look

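Among 230 groups of 9 libraries tested (a gene or list sum within 1 diet), 26 held a library whose gap to its nearest neighbour was over 0.493 of the group's range, and in 16 of them it was Ctrl CT12 replicate 1. This cut-off flags about 1 in 20 groups of 9 independent, normally distributed values. The groups here share the same 18 libraries and pool 3 times of day, so their chance rate is unknown. For Ctrl CT12 replicate 1 the summed levels were 425 FPKM for cortical genes (4.85 to 9.71 in the other Ctrl libraries), 52.2 for the arcuate and neighbouring hypothalamus (958 to 1690), 4164 for myelin (1289 to 2733), 284 for microglia (165 to 220) and 930 for sterol and fatty acid synthesis (1094 to 1254). It was the lowest Ctrl library for Slc25a34 (1.70 FPKM), Scd1 (48.5), Kcnj10 (37.1) and Syt10 (1.46). It was the highest for Fbln5 (2.97), Arntl (13.0), Slc3a2 (39.999), Atf5 (12.1), Bcas1 (81.7), Grik5 (42.4) and Sirt2 (91.0 FPKM). Atf5, a transcription factor of the amino acid response, did not pass in the diet comparison (-0.29, adjusted p = 0.0967).

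The other 10 concerned 6 libraries. Ctrl CT16 replicate 2 was lowest for Arl8a (61.5 FPKM), and Ctrl CT16 replicate 1 highest for Hmgcs1 (79.0). -Trp CT12 replicate 3 was highest for Ndufb3 (216), Ndufb4 (346), Ndufs6 (193) and Nr4a2 (1.58), and -Trp CT12 replicate 1 for Sim1 (3.90) and the cortical sum (28.4 against 4.95 to 9.62 in the other -Trp libraries). -Trp CT20 replicate 1 was highest for Phyhd1 (31.2), and -Trp CT20 replicate 3 for Kcnj10 (55.1 FPKM).

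The diet difference at night was not the same as by day in DD, by the interaction test of limma, for Slc25a34 (night minus day 0.48), Akr1b3 (0.64), Clptm1l (-0.30), Nudt16 (-0.42), Srsf11 (-0.57), Larp7 (-0.45), Tmem50a (-0.48), Oaz1-ps (-0.94) and the pseudogene Gm6644 (-4.45). It differed between DD and LD at night for 2900052N01Rik (DD minus LD 0.61), Hist1h4h (1.1), Anxa8 (1.27), H2afz (0.38), SlcUbl4a (0.87), Rpl30 (0.57), Rpl26 (0.61), Rpl34 (0.53), Ndufc2 (0.51), Ndufab1 (0.52), Zic1 (1.61) and Eif3j1 (4.69), with a higher value in DD. The value in DD was lower for Fads1 (-0.27), Lag3 (-0.88), Clptm1l (-0.28), Ube2r2 (-0.42), Pak6 (-0.49), Larp7 (-0.39), Tmem50a (-0.37), Arl8a (-0.37), Npy1r (-0.65), Hsp90ab1 (-0.26), Oaz1-ps (-0.87) and Gm6644 (-3.38). Within the night, the diet difference of Snora17 varied with time (adjusted p = 3.89e-07, limma).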

How the results depend on the processing

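The diet comparison kept its count within 1.5 times of 443 with another pseudocount, filter, scaling or variance setting, with 314 genes (162 higher and 152 lower) under the replicate block and with 302 after removal of length and GC trends. It gave 1100 genes (570 and 530) as a contrast of all 36 DD libraries, 991 (445 and 546) with the trends removed and Ctrl CT12 replicate 1 left out, 27 without CT12, 1 without CT16, 0 without CT20 (each in 12 libraries) and 0 with the columns as named. The causes were not tested, and the fits without a time point also held fewer libraries. Leaving out 1 library gave 56 to 1361 genes, 5 to 893 at CT12, 0 to 0 at CT16, 0 to 2 at CT20, 1 to 3 for the diet by time test, 12 to 45 for night against day and 11 to 577 for DD against LD. Over the whole night the correlations of same-numbered libraries ran from -0.07 to 0.45, with 5 of 9 over 0.1, among them all 3 at CT12. Whether the replicate numbers pair the libraries was not tested, as no value for unpaired libraries was at hand. With the replicate block, 2 genes passed the diet by time test, 14 the DD against LD test, 10 the test at CT12 and 1 each those at CT16 and CT20. With the FPKM as deposited, 102 genes passed DD against LD. With the columns as named, 4249 genes passed the diet by time test, 4268 night against day and 4710 DD against LD.

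Of the 80 named genes past the threshold, 31 passed whichever library was left out, and 0 changed sign outside the columns as named. Of the 25 others, 4 changed sign: Glod5 (-0.0218 without CT12), Arntl (-0.0388 without CT20), Dbp (0.0867 without CT20) and Nr1d1 (0.0047 with trends removed and the library left out). With the columns as named, the log2 difference had the other sign for Aldh6a1 -0.19, Anxa8 -0.25, Ugt1a6a -0.0162, Fads1 0.18, Lag3 0.25, Laptm5 0.49, Clptm1l 0.16, Ube2r2 0.28, 9630013A20Rik 0.0299, Syndig1l 0.53, Pak6 0.12, Nudt16 0.30, Ankrd40 0.21, Snora17 0.68, Xkr6 -0.0474, Rnaset2a 0.18, Tmem50a 0.17, Arl8a 0.28, Scd1 0.0708, Dhcr7 0.10, Scd2 0.12, Mvd 0.21, Srebf2 0.0753, Clock -0.34, Arntl -0.13, Dbp 0.0563, Nr1d1 0.0963, Per2 -0.40, Slc3a2 0.18, Slc7a5 0.21, Atf5 0.27, Klf15 -0.22, Trh -0.0557, Hsp90ab1 0.15, Bcas1 0.42, Enpp6 0.13, Grik5 0.25, Gria1 0.0444, Kcnj10 0.0344, Nms -0.18, Syt10 -0.90, Nr4a2 0.22, Wars 0.27, Nadsyn1 -0.26, Sirt2 0.15, Rarres2 -0.15, Ccdc153 -0.26, Tmem212 -0.37, Sim1 -0.44, Eif3j1 -0.40, Eif3j2 0.12, Oaz1-ps 0.18 and Gm6644 0.51. Unknown depth limits what can be said of genes under about 1 FPKM.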

Other observations

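The genes described next were chosen after their values were seen, for large differences among the 443. Eif3j1, a subunit of translation initiation factor eIF3, had 0.0334, 0.0385 and 11.8 FPKM (lowest, median, highest) on Ctrl and 6.51, 7.89 and 14.2 on -Trp (2.77 ± 0.65, adjusted p = 0.0379, limma), and its near-identical copy Eif3j2 had 3.23, 13.3 and 17.6 on Ctrl and 0.0377, 5.51 and 8.93 FPKM on -Trp (-1.53, adjusted p = 0.109). The sum of the pair was 12.8 to 17.7 on Ctrl and 12.8 to 15.7 FPKM on -Trp, so that the ranges of the sum overlapped. Oaz1 and Oaz1-ps, of which the second fell by 0.45 (adjusted p = 0.0374), summed to 221 to 264 FPKM (median 249) on Ctrl and 238 to 285 (median 265) on -Trp. Gm6644, a processed pseudogene, had 7.45, 10.6 and 14.1 FPKM on Ctrl and 0.00241, 1.84 and 7.83 on -Trp (-2.51 ± 0.62, adjusted p = 0.0419), with 8 of 9 -Trp libraries below all Ctrl ones.

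Zic1, a zinc finger transcription factor of the developing brain, had 1.91, 5.21 and 9.54 FPKM on Ctrl and 4.40, 12.7 and 22 on -Trp (1.26 ± 0.31, adjusted p = 0.042), with 6 of 9 -Trp libraries above all Ctrl ones. It was a member of no marker list tested here.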
